A study of Mus musculus with 9 samples.

Results

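The 9 interferon-stimulated genes Stat2, Irf9, Irf7, Isg15, Bst2, Ifit3, Ifit1, Oasl2 and Rsad2 were followed in poly(A)-selected RNA of neonatal mouse ventricular myocytes (NMVMs), the beating muscle cells of the newborn ventricle in primary culture. The genes were chosen with earlier results of these data known, and were taken from the deposited count table by exact gene symbol. They make up 9 of its 55401 genes, and all 9 passed the filter on low counts, as did 16762 genes in total. The cells came from wild-type C57BL/6J pups aged 1 day. There were 3 libraries in each of 3 groups. Control dishes stayed at normal oxygen in DMEM with 10% FBS. Hypoxia cultures were moved to DMEM lacking both glucose and serum and sealed with an AnaeroPack, a sachet that takes up oxygen, for 6 h. Hypoxia + rSRGN cultures were handled in the same way with recombinant serglycin, a small proteoglycan that many immune cells secrete, in the medium. The hypoxic groups differ from control in oxygen, glucose and serum at once, and these cannot be told apart. The labels do not say whether the libraries of a group came from separate litters or dishes and name no batch, so the p-values measure the spread between these libraries only.

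Type I interferons bind a receptor on the cell surface whose JAK kinases phosphorylate STAT factors, STAT2 among them. Phosphorylated STAT2 joins IRF9 in the ISGF3 complex, which binds the interferon-stimulated response element (ISRE) in promoters and turns on antiviral genes. Among the targets are STAT2, IRF9 and IRF7 themselves, so that the response is amplified, and heart muscle cells are known to keep part of this programme on without infection.

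The promoters of the 9 genes were searched for the core of the ISRE because it is the element through which ISGF3 acts. The RefSeq promoter windows (assembly GRCm38.p6) hold 250 bases before the transcription start and the first 50 bases from it, and all 9 genes matched a window. The core was written GAAANNGAAA, or TTTCNNTTTC when read on the other strand. It was found in the windows of 6 of the 9 genes, whereas 3.99% of the 27025 genes in the RefSeq table and 3.44% of its 32851 promoters hold it. Matches may overlap each other, and a match describes letters, not a bound site. The windows of Irf7, Irf9 and Oasl2 held no match in these letters. The stretches around the matches are shown because these letters set the promoters of the 6 genes beside each other, with the matches in capitals and each stretch read 5′ to 3′ on the strand of its gene.

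Isg15, minus strand of chr4:156200860-156200911, with 3 overlapping matches: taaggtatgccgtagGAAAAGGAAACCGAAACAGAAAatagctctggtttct
Bst2, minus strand of chr8:71537572-71537617, with 2 overlapping matches: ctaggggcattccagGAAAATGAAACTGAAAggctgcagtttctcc
Stat2, plus strand of chr10:128270261-128270300, with 1 match: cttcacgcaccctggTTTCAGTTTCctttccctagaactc
Rsad2, minus strand of chr12:26456548-26456587, with 1 match: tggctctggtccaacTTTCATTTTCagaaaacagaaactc
Ifit3, plus strand of chr19:34583358-34583431, with 2 matches: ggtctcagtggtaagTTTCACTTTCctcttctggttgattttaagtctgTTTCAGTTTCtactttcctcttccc
Ifit1, plus strand of chr19:34640770-34640828, with 2 matches: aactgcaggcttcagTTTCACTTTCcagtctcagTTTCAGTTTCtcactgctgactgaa

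All 6 stretches lie upstream of the transcription start, outside the exons of their genes. The letters TTTCAGTTTC recur in Stat2, Ifit3 and Ifit1, and their reverse complement GAAACTGAAA is the second match of Bst2. Ifit1 and Ifit3 also share TTTCACTTTC. A second element, the gamma-activated sequence (GAS) bound by STAT dimers, was written TTCNNNGAA, which is its own reverse complement. Bst2 alone among the 9 genes held it, as TTCCAGGAA, and its last 3 bases overlap the first ISRE match. It is present in 9.55% of all RefSeq genes.

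**Figure D1:**
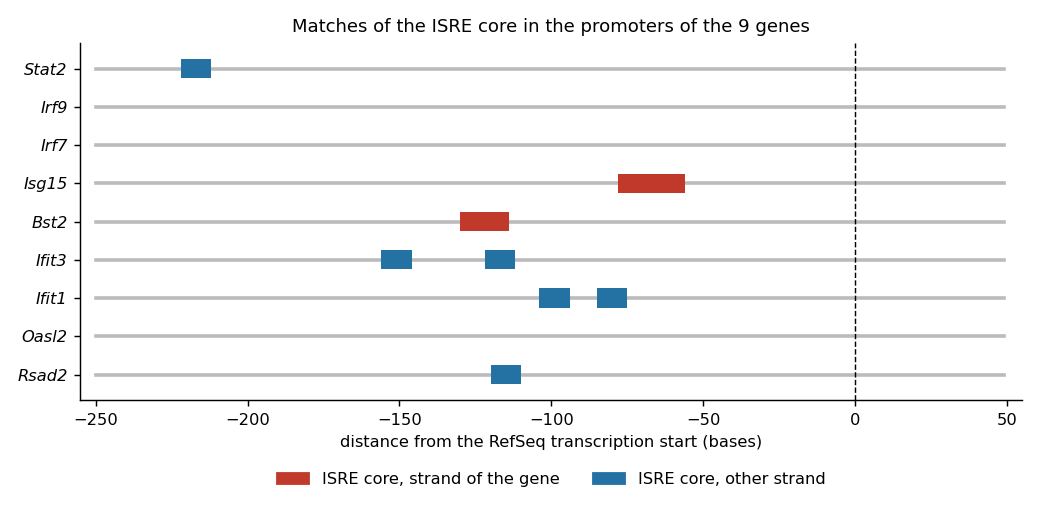
Positions of the ISRE core in the promoter windows of the 9 genes, as distance in bases from the RefSeq transcription start (dashed line at 0); grey lines are the 300 bases searched, red boxes matches on the strand of the gene and blue boxes matches on the other strand, with overlapping matches drawn as 1 box. The matches lie between 222 and 57 bases before the start, and Irf9, Irf7 and Oasl2 show none.

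Total counts were 21669017 to 22781557 in control, 16583985 to 18148474 in hypoxia and 16640239 to 20826701 in hypoxia + rSRGN. Levels are given as CPM, counts relative to the TMM-scaled total of the library, and the 9 genes ranged from 4 counts (Rsad2, a hypoxia library) to 884 counts (Bst2, a hypoxia library). Cell type markers moved with the groups. The summed level of 15 cardiomyocyte markers was 51722 to 63248 CPM in control, 4327 to 6749 CPM in hypoxia and 8656 to 9304 CPM in hypoxia + rSRGN, and all 15 fell in hypoxia. The 10 fibroblast markers summed to 8843 to 10442 CPM in control and 17654 to 20416 CPM in hypoxia, and 8 of them rose. Of 13 macrophage markers tested 11 fell in hypoxia, Lyz2 among them with a log2 fold change of -3.67, while Cx3cr1 rose from a mean of 0.285 to 114 CPM. In hypoxia + rSRGN against hypoxia, 12 cardiomyocyte markers, 2 of 8 mural cell markers and 1 of 10 endothelial markers were higher, 1 fibroblast marker was lower and no macrophage marker passed the edgeR test, with 2 higher at an unadjusted p below 0.05 and 0 called by DESeq2. Of 10 endothelial markers 7 fell in hypoxia and none rose by edgeR or DESeq2, with 1 higher at an unadjusted p below 0.05, and of 8 mural cell markers 1 rose and 1 fell. Plasmacytoid dendritic cells are a main source of interferon, and Bst2 is also among their markers. Of the 4 of these markers tested, Bst2 rose and Cox6a2, which muscle also expresses, fell, while the defining marker Siglech had 0 counts in all 9 libraries. The 8 lymphocyte and 6 neutrophil markers summed to at most 1.44 and 0.867 CPM in any library. In such bulk RNA, fewer cells of a type and less RNA per cell cannot be told apart, and the part of these markers in the results for the 9 genes was not tested.

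**Figure D2:**
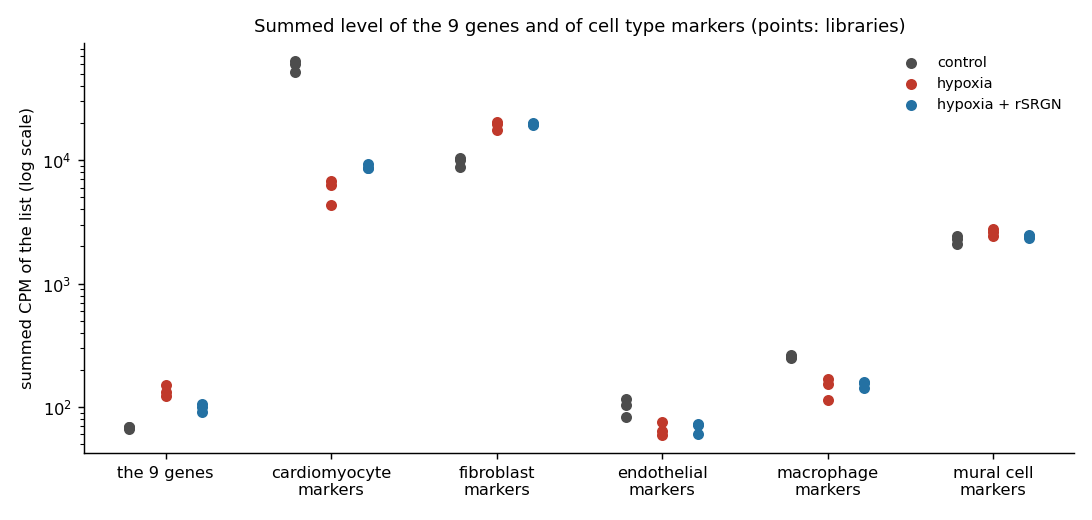
Summed TMM-scaled CPM (log scale) of the 9 genes and of the cardiomyocyte, fibroblast, endothelial, macrophage and mural cell markers, with a point for each library. The sum of the 9 genes is highest in hypoxia, where cardiomyocyte markers are lowest and fibroblast markers are above control.

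The sum of the 9 genes was 66.1 to 68.9 CPM in control, 122 to 151 CPM in hypoxia and 91.9 to 106 CPM in hypoxia + rSRGN, so the 3 groups did not overlap. Levels of different genes were compared only per length, as RPKM (CPM per kilobase of exon). By this measure Bst2 was the most abundant in every group, with 13.5 ± 1.20 RPKM in control, 51.9 ± 3.29 in hypoxia and 39.6 ± 3.99 in hypoxia + rSRGN (SD, n = 3). Rsad2 was the least abundant in every group, with 0.244 ± 0.103, 0.111 ± 0.0771 and 0.169 ± 0.0319 RPKM. In control the order after Bst2 was Stat2, Irf9, Isg15, Ifit3, Ifit1, Irf7, Oasl2 and Rsad2. The ranges of Irf9 and Isg15, Isg15 and Ifit3, Irf7 and Oasl2, and Oasl2 and Rsad2 overlapped there. In hypoxia Ifit3, Isg15, Stat2 and Irf9 followed Bst2 with means from 5.15 to 5.83 RPKM and each overlapped the next, so that their order was not resolved. In hypoxia + rSRGN, Stat2, Ifit3, Irf9 and Isg15 followed Bst2 with means from 3.18 to 4.39 RPKM and likewise overlapped from each to the next.

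In hypoxia against control, 6 of the 9 genes rose, namely Irf7, Irf9, Isg15, Ifit3, Bst2 and Oasl2, and none fell. A gene was said to rise or fall at an adjusted p below 0.05 in the quasi-likelihood test of edgeR, with p adjusted over all genes tested by Benjamini-Hochberg, and a change of at least 1.5-fold. The culture change moved much of the transcriptome, and 26.4% of the 16762 genes rose and 25.1% fell. The median log2 fold change of the 9 genes was 1.07, beside 0.0537 over all genes tested. Stat2, Ifit1 and Rsad2 did not pass. With DESeq2, 6 genes were higher and 0 lower, and at an unadjusted p below 0.05, 1 of the 9 was lower (Rsad2), as were 34.9% of all genes. In 6 genes (Stat2, Irf9, Irf7, Bst2, Ifit3 and Oasl2) every hypoxia library lay above every control library, which held for 37.7% of all genes tested.

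**Figure D3:**
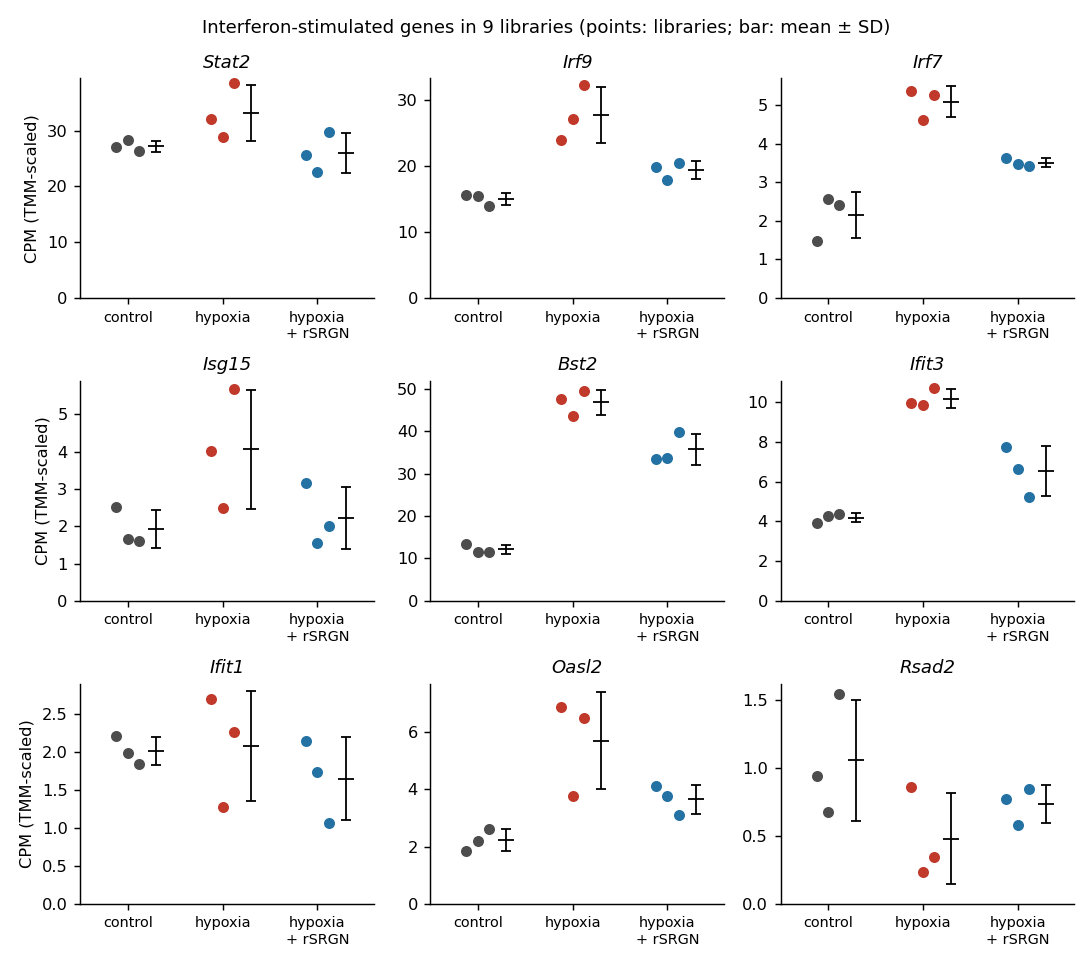
TMM-scaled CPM of the 9 genes (y axis, starting at 0) in each library of control (grey), hypoxia (red) and hypoxia + rSRGN (blue); bars are the mean ± SD of 3 libraries. Irf9, Irf7, Bst2 and Ifit3 show 3 separate groups with hypoxia highest, whereas all 3 groups overlap in Ifit1.

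Among the regulators, Stat2 (chromosome 10, positions 128270559 to 128292849, plus strand), the activating subunit of ISGF3, measured 27.0, 28.3 and 26.3 CPM in the control libraries, 32.1, 28.8 and 38.6 CPM in hypoxia and 25.6, 22.6 and 29.8 CPM in hypoxia + rSRGN. Every hypoxia value lay above control, with the lowest within 1 CPM of the highest control value, and the treated libraries straddled control. The log2 fold change in hypoxia was 0.29 (SE 0.114, adjusted p = 0.0301), short of 1.5-fold. Irf9 (chromosome 14, positions 55603571 to 55610030, plus strand) is the subunit that gives ISGF3 its DNA binding. It measured 15.6, 15.4 and 13.9 CPM in control, 23.9, 27.0 and 32.3 CPM in hypoxia and 19.9, 17.8 and 20.4 CPM in hypoxia + rSRGN. None of the 3 groups overlapped. Irf9 rose 1.85-fold in hypoxia (log2 0.89, SE 0.115, adjusted p = 4.79e-07).

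Irf7 (chromosome 7, positions 141262706 to 141266481, minus strand), the factor that drives the later wave of alpha interferon genes, was at 1.48, 2.57 and 2.42 CPM in control, 5.37, 4.62 and 5.27 CPM in hypoxia and 3.63, 3.47 and 3.43 CPM in hypoxia + rSRGN. Its groups did not overlap either, and the treated libraries were the most alike. Irf7 rose 2.36-fold in hypoxia (log2 1.24, SE 0.232, adjusted p = 6.3e-05). Of its exon bases, 45 (1.19%) are shared with Phrf1 on the opposite strand, and 123 (2.28%) of those of Irf9 with Rnf31 on the same strand, so a small share of their fragments is uncertain in counts made without strand.

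Among the effectors, Bst2 (chromosome 8, positions 71534255 to 71537456, minus strand) encodes tetherin, which holds budding virus particles at the cell membrane. It stood at 13.4, 11.6 and 11.6 CPM in control, 47.5, 43.6 and 49.5 CPM in hypoxia and 33.5, 33.7 and 39.9 CPM in hypoxia + rSRGN. All 3 groups were separate. Bst2 rose 3.84-fold in hypoxia (log2 1.94, SE 0.106, adjusted p = 2.68e-13), more than any other of the 9 genes. Isg15 (chromosome 4, positions 156199455 to 156200796, minus strand), a ubiquitin-like protein that is attached to other proteins, was at 2.52, 1.67 and 1.59 CPM in control, 4.03, 2.49 and 5.68 CPM in hypoxia and 3.16, 1.54 and 2.01 CPM in hypoxia + rSRGN. The second hypoxia library lay just under the highest control library, so these groups overlapped. Isg15 rose 2.10-fold (log2 1.07, SE 0.319, adjusted p = 0.00502), and without hypoxia replicate 3 the log2 fold change was 0.75 with an adjusted p of 0.0541, the highest over the alternatives, whose lowest was 0.000479.

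Ifit3 (chromosome 19, positions 34583531 to 34588731, plus strand) and Ifit1 (chromosome 19, positions 34640871 to 34650009, plus strand) encode tetratricopeptide proteins that bind foreign RNA and each other. Ifit3 measured 3.91, 4.29 and 4.35 CPM in control, 9.94, 9.88 and 10.7 CPM in hypoxia and 7.75, 6.65 and 5.23 CPM in hypoxia + rSRGN. The hypoxia libraries were close together and the treated ones lay between both other groups without overlap. Ifit3 rose 2.43-fold (log2 1.28, SE 0.167, adjusted p = 5.14e-07). Ifit1 was at 2.20, 1.99 and 1.84 CPM in control, 2.69, 1.27 and 2.26 CPM in hypoxia and 2.15, 1.73 and 1.06 CPM in hypoxia + rSRGN. The 3 groups of Ifit1 overlapped, and its log2 fold change in hypoxia was 0.05 (SE 0.326, adjusted p = 0.904), a value that turned to -0.0054 with no filter on low counts.

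Oasl2 (chromosome 5, positions 114896936 to 114912234, plus strand), of the oligoadenylate synthetase family of RNA-sensing enzymes, measured 1.84, 2.21 and 2.61 CPM in control, 6.88, 3.76 and 6.49 CPM in hypoxia and 4.11, 3.76 and 3.12 CPM in hypoxia + rSRGN. The second hypoxia library was the lowest of its group, as in every one of the 9 genes except Irf9, but lay above every control library of Oasl2. Oasl2 rose 2.57-fold (log2 1.36, SE 0.247, adjusted p = 4.24e-05). Rsad2 (chromosome 12, positions 26442746 to 26456452, minus strand) encodes viperin, an enzyme that makes a nucleotide which stops viral RNA synthesis. Its counts were 21, 15 and 32 in control, 16, 4 and 6 in hypoxia and 13, 12 and 16 in hypoxia + rSRGN. Rsad2 thus had the fewest counts of the 9 genes and was the only gene with a mean in hypoxia below that in both other groups. The log2 fold change in hypoxia against control was -1.11 (SE 0.51, adjusted p = 0.0577), not past the threshold, and it was -1.84 (adjusted p = 0.0112) without hypoxia replicate 1 and -1.37 (adjusted p = 0.0389) without control replicate 2, within a range of adjusted p from 0.0112 to 0.273 over the alternatives.

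**Figure D4:**
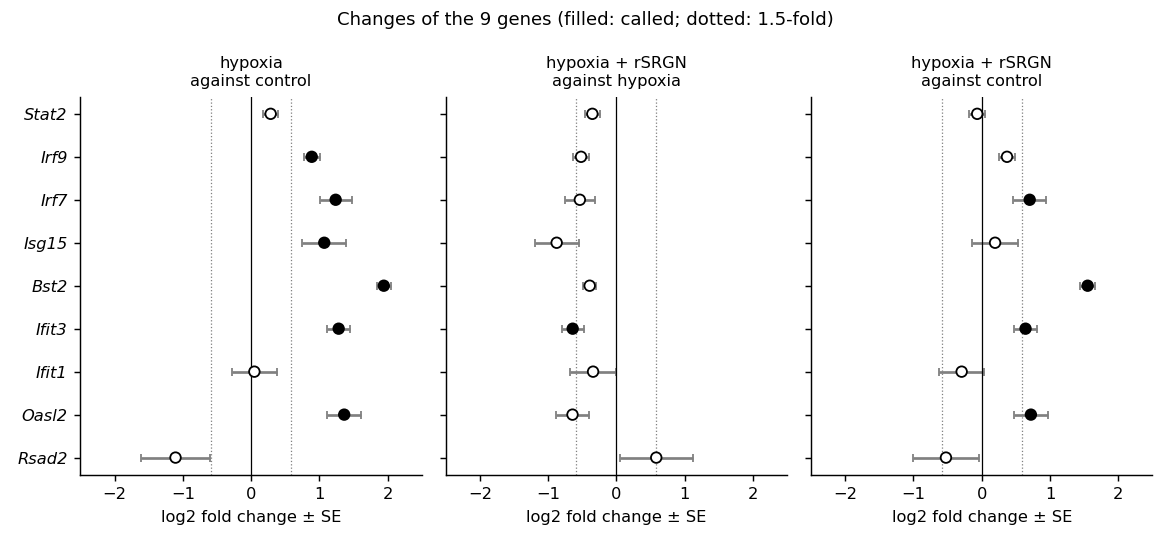
Log2 fold change ± SE (x axis) of the 9 genes in 3 panels, from left to right hypoxia against control, treated against hypoxia, and treated against control; filled points passed the test, and dotted lines mark a 1.5-fold change. Filled points number 6 in the first comparison (all to the right of 0), 1 in the second (Ifit3, to the left) and 4 in the third (all to the right).

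Addition of recombinant serglycin to the hypoxic cultures lowered Ifit3 by 1.56-fold (log2 -0.64, SE 0.162, adjusted p = 0.00958), and the other 8 genes did not pass. Of all 16762 genes, 0.859% fell and 2.27% rose in this comparison. No member rose by edgeR or by DESeq2, and none was higher at an unadjusted p below 0.05. The log2 fold change was below 0 in 8 of the 9 genes, as in 53.7% of all genes, with a median of -0.52 beside -0.0289 over all genes. At an unadjusted p below 0.05 and any fold change, 7 of the 9 were lower, as were 13.5% of all genes. Every treated library lay below every hypoxia library in 4 of the 9 genes (Irf7, Irf9, Ifit3 and Bst2), which held for 15.5% of all genes.

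Of the 8 that did not pass, Bst2 (log2 fold change -0.39, SE 0.0987, adjusted p = 0.00932), Irf9 (-0.52, SE 0.114, adjusted p = 0.00364) and Stat2 (-0.35, SE 0.115, adjusted p = 0.0398) had an adjusted p below 0.05 and a change of less than 1.5-fold. Isg15 (-0.88, SE 0.32, adjusted p = 0.0656) and Oasl2 (-0.64, SE 0.238, adjusted p = 0.0692) had a change of 1.5-fold and missed the adjusted p. For Irf7 the log2 fold change was -0.54 (SE 0.224, adjusted p = 0.11) and for Ifit1 -0.34 (SE 0.338, adjusted p = 0.546). Rsad2 had the only value above 0, at 0.58 (SE 0.536, adjusted p = 0.511). The count of 1 changed when single libraries were left out. Ifit3 itself no longer passed without hypoxia + rSRGN replicate 3, with a log2 fold change of -0.49 and an adjusted p of 0.0615, in a range from 0.00536 to 0.0615 over the alternatives. Beside Ifit3, Isg15 (-1.13) and Oasl2 (-0.87) passed without hypoxia replicate 2, Irf9 (-0.62) without hypoxia replicate 1 and Isg15 (-1.19) without hypoxia + rSRGN replicate 1.

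Against control, the treated cultures had 4 of the 9 genes higher (Irf7, Ifit3, Bst2 and Oasl2) and 0 lower by both edgeR and DESeq2, beside 24.1% of all genes higher and 24.7% lower. None was lower at an unadjusted p below 0.05 and 5 were higher. In 5 genes, those 4 and Irf9, every treated library lay above every control library, as in 36.6% of all genes. This comparison shares its control libraries with the first and its treated libraries with the second, and its values are therefore given only beside them. Bst2 was 2.93-fold above control (log2 1.55, adjusted p = 1.7e-11), Oasl2 had a log2 fold change of 0.72 (adjusted p = 0.0162), Irf7 of 0.70 (adjusted p = 0.0124) and Ifit3 of 0.64 (adjusted p = 0.00227). Irf9, at 0.37 (adjusted p = 0.00797), stayed under 1.5-fold. Values for Isg15 (0.20), Stat2 (-0.07), Ifit1 (-0.29) and Rsad2 (-0.52) had adjusted p of 0.342 or more. Irf7 and Oasl2 did not pass without control replicate 1, and Ifit3 and Oasl2 did not pass without hypoxia + rSRGN replicate 1, which left 2 genes in both cases.

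Ifit3 and Ifit1 lie with 4 relatives in a stretch of chromosome 19 from position 34550694 to 34650009, and these neighbours did not change together. Between control and hypoxia Ifit3 rose, whereas Ifit1bl1 (log2 -3.35, adjusted p = 7.02e-06), Ifit1bl2 (log2 -2.30, adjusted p = 0.000158) and Ifit3b (log2 -1.06, adjusted p = 0.0167) fell. Ifit2, at the upstream end, had 28.4, 24.7 and 28.0 CPM in control and 33.0, 38.0 and 30.8 CPM in hypoxia, a log2 fold change of 0.33 (adjusted p = 0.00696) that stayed under 1.5-fold. Ifit3b, the nearest relative of Ifit3, went from 1.57, 1.85 and 1.88 CPM in control to 0.86, 0.867 and 0.811 CPM in hypoxia. The ISRE matches of Ifit1 shown above lie between its start and the end of Ifit1bl2 at position 34640743, which is the start of that gene on the minus strand. Near-identical sequence limits part of this. Of the 100-base stretches of the Ifit3 transcript (GENCODE release M21), 31.7% also occur in Ifit3b, as do 3.29% of those of Ifit1 in Ifit1bl2, so fragments from there could be left out or assigned to the wrong copy. Stretches shared with another gene made up 0.411% in Irf9 (with Rnf31) and 0 in Stat2, Irf7, Isg15, Rsad2, Bst2 and Oasl2. Oasl1, the relative of Oasl2, rose in hypoxia with a log2 fold change of 1.38 (adjusted p = 0.0132), which had an adjusted p of 0.0608 without hypoxia replicate 3 and from 0.0101 to 0.0608 over the alternatives. Ifit2, Ifit1bl2 and Oasl1 were chosen for naming after their values were seen.

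The pathway was then followed from ligand to target in lists of genes. Over all genes tested, 26.4% rose and 25.1% fell in hypoxia, and 2.27% rose and 0.859% fell with rSRGN. None of the 17 interferon genes in the table passed the filter, with 5 counts in total in control, 21 in hypoxia and 24 in hypoxia + rSRGN. Ifnb1, Ifng, Ifnl2 and Ifnl3, the beta, gamma and lambda interferons, had 0 counts in all 9 libraries, which allows up to 3 counts over a group, or 0.0461 CPM in control, 0.0564 in hypoxia and 0.0531 in hypoxia + rSRGN, for counting error only. Ifnab had 1 count in the control libraries together, 9 in hypoxia and 17 in hypoxia + rSRGN. For the genes at 0, RNA was not detectable at this depth.

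Most receptor genes fell in hypoxia. Of 6 receptor genes, Ifnlr1 (log2 -3.26), Ifngr2 (-1.19), Il10rb (-0.91) and Ifnar1 (-0.59) fell and none rose by edgeR or DESeq2, with 2 higher at an unadjusted p below 0.05. Those were Ifnar2 (0.44, adjusted p = 0.000189) and Ifngr1 (0.36, adjusted p = 0.000751), both under 1.5-fold. Ifnar1 and Ifnar2 form the receptor for alpha and beta interferon, so its chains gave values on either side of 0. The fall of Ifnar1 was close to the threshold and below 1.5-fold with library size alone (-0.52) or without hypoxia replicate 2 (-0.58). Of Jak1, Jak2, Tyk2 and Stat2, the kinases and the STAT named here, none rose or fell by edgeR or DESeq2, and at an unadjusted p below 0.05, 1 was higher (Stat2). The log2 fold changes of the kinases were -0.09 for Jak1, 0.16 for Jak2 and 0.0033 for Tyk2. In hypoxia + rSRGN against hypoxia none of these receptor, kinase and STAT genes passed with either tool. At an unadjusted p below 0.05, 1 receptor gene and 2 of the kinases were higher, and 1 receptor gene and Stat2 were lower.

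The interferon regulatory factors (IRFs), the transcription factor family to which Irf7 and Irf9 belong, mostly rose. In hypoxia 5 rose, with Irf5 (log2 1.51, adjusted p = 5.55e-07), Irf2 (1.04, adjusted p = 6.93e-09) and Irf1 (0.64, adjusted p = 0.000149) beside Irf7 and Irf9. Irf1 was at 9.89, 9.53 and 11.1 CPM in control, 17.03, 14.5 and 16.04 CPM in hypoxia and 9.59, 9.78 and 12.5 CPM in hypoxia + rSRGN, so that treated and control libraries overlapped. Its log2 fold change in hypoxia was 0.58, under 1.5-fold, without control replicate 2. Irf2, which represses interferon genes, ranged from 16.8 to 20 CPM in control and measured 37.1, 43.1 and 36.1 CPM in hypoxia and 41.2, 36.7 and 40.4 CPM in hypoxia + rSRGN. Both hypoxic groups of Irf2 overlapped. Irf3 (0.37) and Irf8 (0.22) did not pass. With rSRGN none of the family passed by edgeR or DESeq2, with 4 lower and 0 higher at an unadjusted p below 0.05. Irf1, at -0.58 (adjusted p = 0.00457), stayed just under 1.5-fold.

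Of 15 nucleic acid sensors and adaptors, 6 rose and 3 fell in hypoxia. The DNA sensor Aim2 (log2 1.42), the kinase Ikbke (1.26), the adaptor Sting1 (0.88) and the RNA helicase Dhx58 (0.78) rose, whereas the adaptor Mavs (-1.15) and the RNA receptor Tlr3 (-0.91) fell. Dhx58 was near the limit, at an adjusted p of 0.0468 in a range from 0.017 to 0.158 over the alternatives, and DESeq2 called 4 of the list higher. In the inhibitors of interferon signalling, Socs3 rose (0.62), Pias1 (-1.27) and the phosphatase Ptpn11 (-0.72) fell, and the values of the others were 0.53 for Socs1, 0.28 for Pias4, 0.09 for Ptpn2, 0.05 for Ptpn6, -0.0072 for Usp18 and -0.40 for Ptpn1. Socs3 stayed under 1.5-fold with no filter (0.56), without control replicate 1 (0.46) and without hypoxia replicate 1 (0.58). Ptpn6 fell with rSRGN (log2 -1.47, adjusted p = 0.00645), from 2.42, 2.20 and 2.09 CPM in hypoxia to 0.417, 1.16 and 0.792 CPM. None of the sensors passed in that comparison by edgeR or DESeq2, with 2 higher and 3 lower at an unadjusted p below 0.05.

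The enzymes that attach and remove ISG15 gave values on both sides of 0. Beside Isg15, the conjugating enzyme Ube2l6 rose (log2 1.04, adjusted p = 1.51e-10) and the ligase Trim25 fell (-1.33, adjusted p = 5.51e-11). Herc6, the main ISG15 ligase of the mouse, had a value of 0.48, the activating enzyme Uba7 0.33 and the protease Usp18 -0.0072, none past the threshold. With rSRGN none of the 6 passed by edgeR or DESeq2, and 3 were lower and 0 higher at an unadjusted p below 0.05.

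Other antiviral interferon-stimulated genes moved in both directions in hypoxia. Of 58 tested, 20 rose and 13 fell, beside 6 and 0 of the 9 genes and 26.4% and 25.1% of all genes. The median log2 fold change of the 58 was 0.11, beside 0.0537 over all genes. The largest rises by the naming rule were Ifi27l2a (log2 2.36), the exonuclease Isg20 (1.70), Ifitm3 (1.55), which blocks virus entry, and Oas1b of the oligoadenylate synthetases (1.496). Ifitm3 went from 44.2, 40.2 and 41.5 CPM in control to 125, 109 and 136 CPM in hypoxia and 84.0, 95.4 and 87.7 CPM in hypoxia + rSRGN, without overlap. Ifit1bl1, Ifit3b and Dtx3l (-1.497) were among those that fell. With rSRGN 2 of the 58 fell, Sp100 (-0.60, adjusted p = 0.017) and Trim34a (-0.79, adjusted p = 0.0419), and none rose. DESeq2 called 1 lower and 0 higher, and at an unadjusted p below 0.05, 17 were lower and 1 higher, beside 13.5% of all genes lower. Sp100 stayed under 1.5-fold with DESeq2 (-0.57), RLE scaling (-0.57), at least 10 counts in every library (-0.58) and only the groups compared (-0.58). The adjusted p of Trim34a ranged from 0.0301 to 0.187 over the alternatives. Trim34a did not pass with RLE scaling (0.0505), with only the groups compared (0.0521), or without any 1 of control replicates 2 and 3, hypoxia replicate 1 and the 3 hypoxia + rSRGN replicates. Sp100 did not pass without control replicate 1, hypoxia replicate 1, hypoxia replicate 3 or hypoxia + rSRGN replicate 1.

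The GTPases that gamma interferon induces also moved in both directions. Of 9 tested, Iigp1 (log2 -3.55), Igtp (-3.31) and Irgm2 (-2.65) fell in hypoxia and Gbp3 (1.49) and Ifi47 (0.62) rose, although Ifi47 had an adjusted p of 0.051 without hypoxia replicate 3 (lowest over the alternatives 0.00117) and stayed under 1.5-fold with no filter (0.56) and without control replicate 2 (0.58). The ISRE core was present in the promoters of 10 of 11 of these genes with a RefSeq window (90.9%), against 26 of 55 other antiviral genes (47.3%) and 4 of 15 antigen presentation genes (26.7%). Among the latter, 8 of 15 tested rose and 2 fell in hypoxia, with a median of 0.77. B2m (log2 1.98, adjusted p = 8.44e-16), the light chain of MHC class I, H2-T23 (1.58), H2-Q4 (1.29) and their transactivator Nlrc5 (1.49) rose, and the proteasome genes Psmb10 (-1.18) and Psme1 (-0.93) fell. B2m was at 196, 180.2 and 195 CPM in control, 680, 810 and 769 CPM in hypoxia and 602, 590 and 607 CPM in hypoxia + rSRGN, so the 3 groups did not overlap. With rSRGN 13 of these 15 genes had a value below 0, beside 53.7% of all genes, and none passed by edgeR or DESeq2. At an unadjusted p below 0.05, 3 were lower and 1 higher, beside 13.5% of all genes lower. None of the GTPases passed either with both tools, with 2 lower and 0 higher at an unadjusted p below 0.05.

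**Figure D5:**
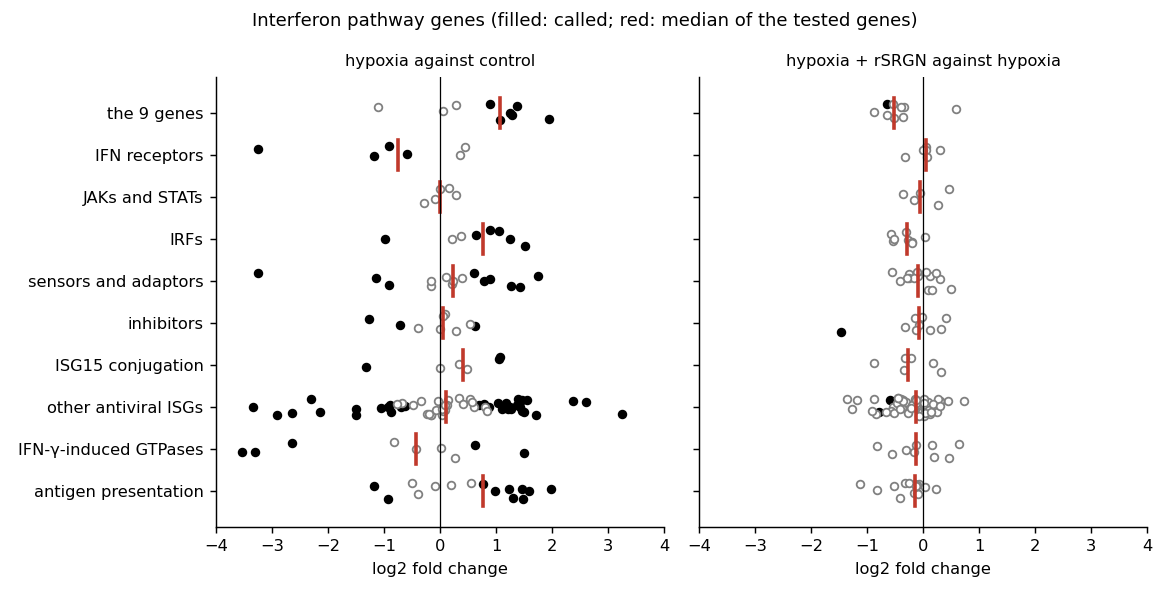
Log2 fold change (x axis) of each tested gene of the 9 genes and of the interferon pathway lists, in hypoxia against control and in hypoxia + rSRGN against hypoxia; filled points passed the test and red bars are list medians. In hypoxia the median is 1.07 for the 9 genes, 0.77 for the IRFs and -0.75 for the receptors, and with rSRGN few points are filled.

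The genes whose profile over the 9 libraries was most like that of the 9 genes were found by Pearson correlation with the mean of their standardised log2 CPM, given as a description over libraries that fall into 3 groups. They were Izumo4 (r = 0.967), Tmem119 (0.965), Znrd1 (0.963), Gm10074 (0.960) and Rilpl2 (0.959). Izumo4 was at 5.98, 6.37 and 5.12 CPM in control, 14.1, 8.78 and 15.5 CPM in hypoxia and 11.1, 7.23 and 8.50 CPM in hypoxia + rSRGN. As in every one of the 9 genes except Irf9, its second hypoxia library was the lowest of that group. Tmem119 ranged from 38.8 to 42.6 CPM in control and from 51.0 to 62.7 CPM in hypoxia, with 43.7 to 47.3 CPM in hypoxia + rSRGN.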

How the data were processed

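RNA-seq libraries of 9 NMVM cultures were assigned to groups from the sample labels. The deposited table holds raw fragment counts of each gene as whole numbers, and per the file header the authors made them with featureCounts 2.0.1 on exons of GENCODE mouse release M25 (mm10, GRCm38) with no strand option, so overlapping and near-identical genes are uncertain. The submitters' processing notes also name HISAT2. The file gives exon lengths, used for RPKM. All 9 columns of counts were used.

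The analysis used edgeR 4.0.16 in R 4.3.3 (filterByExpr, TMM, a mean per group over all 9 libraries, quasi-likelihood test with Benjamini-Hochberg adjustment over 16762 genes). The step was tested on simulated data in which far fewer genes changed than in hypoxia against control, so the simulation does not cover so broad a change. Alternatives were DESeq2 1.42.0, RLE scaling, library size alone, other filters (none, or at least 10 counts in every library), an unadjusted p, no fold change limit, only the groups compared, a replicate block, and each library left out. Libraries of 1 group differed by more than counting error in every pair. Log2 CPM used a prior count of 2.

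All 9 genes were named. Lists of up to 9 genes were named whole, and of longer lists every gene called with rSRGN and the 4 largest rises and falls in hypoxia with a mean of at least 1 CPM. A few genes that this rule names are not reported here. The 5 genes most alike followed the correlation given. The genes and lists were chosen with earlier results of these data known.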

Additional observations from a re-analysis of the deposited data

How the results depend on the processing

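For the 9 genes, 410 of 429 recomputed log2 fold changes kept their direction and their side of the threshold, as did 924 of 984 for the other genes named. In hypoxia against control the 0 lower became 1 (Rsad2) at an unadjusted p with the 1.5-fold limit kept, and ranged from 0 to 1 with a library left out. Of the 6 higher, Isg15 did not pass without hypoxia replicate 3 (adjusted p = 0.0541). With no fold change limit Stat2 passed as well (adjusted p = 0.0301). In hypoxia + rSRGN against hypoxia the 1 lower became 3 at an unadjusted p with the 1.5-fold limit kept. The count became 4 at the adjusted p with no fold change limit, and 2 with no filter. With a library left out it ranged from 0 to 3 (0 without hypoxia + rSRGN replicate 3, 2 without hypoxia replicate 1 or hypoxia + rSRGN replicate 1, 3 without hypoxia replicate 2). In hypoxia + rSRGN against control the 4 higher ranged from 2 to 4 with a library left out. Values near 0 changed sign. In hypoxia against control these were Ifit1 (-0.0054 with no filter, and -0.187 to 0.298 with a library left out), Tyk2 (-0.021 with DESeq2, -0.0211 with RLE scaling, -0.0504 with no filter, -0.0014 with at least 10 counts, -0.0071 with only the groups compared, and -0.0812 to 0.0701 with a library left out), Usp18 (0.0653 with library size alone, and -0.2821 to 0.25 with a library left out) and Ptpn6 (-0.0091 with no filter, and -0.0203 to 0.0902 with a library left out). In hypoxia + rSRGN against control they were Stat2 (-0.181 to 0.0267) and Isg15 (-0.1257 to 0.428), each with a library left out. The cause was not tested. Rsad2 gave no value with at least 10 counts in every library. Same-numbered libraries did not deviate together (correlations of -0.037 to 0.021 over 9 pairs). A small shared effect could give such values too, so whether the numbers pair the samples is not known. With the replicate block the 9 genes again counted 6 higher and 0 lower, 0 higher and 1 lower, and 4 higher and 0 lower in the 3 comparisons. With the block Dhx58 in hypoxia (adjusted p = 0.0659) and Trim34a with rSRGN (adjusted p = 0.0582) did not pass. Depth limits Rsad2, with 4 to 32 counts a library, and the interferon genes, none of which passed the filter.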
